A study of Mus musculus with 10 samples.

Results

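The genes described here burn fatty acids and branched-chain amino acids. A list of 43 genes was read from whole-lung arrays, of which 40 had a probe set that carried their symbol alone. They are 40 of 12393 genes with such a probe set. Where a gene had several, the one brightest on average across the 10 arrays stood for it, so group played no part in the choice. Cpt1b, Acsl1 and Acsl3 had no such probe set and were not analysed here. By step, the 40 genes were 22 of 25 for mitochondrial fatty acid oxidation, 5 of 5 for peroxisomal steps, 10 of 10 for branched-chain amino acids and 3 of 3 for ketone bodies.

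The lungs came from male C57BL/6 mice, an inbred laboratory strain, aged 6 to 8 weeks. Of these, 5 breathed normal air (normoxia) and 5 were exposed to intermittent hypoxia, in which inspired oxygen falls and recovers repeatedly. One Affymetrix Mouse Genome 430A 2.0 array was hybridised per lung, and the design text speaks of separate animals. The sources used here do not give the duration of exposure, its oxygen levels or when the lungs were taken. No gene was altered and no drug was given, per the labels, and whole lung mixes epithelium, vessels, leukocytes and any attached muscle or fat.

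A fatty acid is first joined to coenzyme A by an acyl-CoA synthetase, and a thioesterase can undo that step. Carnitine carries long chains across the inner mitochondrial membrane, and a spiral of dehydrogenation, hydration, second oxidation and thiolysis then removes acetyl-CoA. Electrons from the first step pass through electron transfer flavoprotein to the respiratory chain. Peroxisomes shorten very long and branched chains by a separate set of enzymes. Leucine, isoleucine and valine are transaminated, decarboxylated and then oxidised by dehydrogenases of the same family that acts on fatty acids. In the lung, alveolar type 2 cells handle large amounts of fatty acid as makers of surfactant lipid.

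All values are log2 probe set levels, so a difference of 1 is a doubling, and levels of different genes are not compared. Array medians lay between 7.69 and 7.73, and the dimmest 25% of probe sets had a mean level below 6.27. The spread of values over an array (SD) was 1.99 to 2.05 on 7 arrays but 1.89 to 1.93 on normoxia 2, 3 and 4, so these 3 arrays stand apart. Bright genes leaned upward in hypoxia, and the cause of this was not tested. The median difference was 0.14 among the 3099 genes that make up the brightest 25%. It was 0.00 after quantile normalization, which gives every array the same distribution of values. Normoxia array 2 also carried skeletal muscle RNA, as given with the marker lists. The 8 lung identity markers, among them Sftpc and Scgb1a1, were all measured. Their summed level spanned 16.50 to 16.73 under normoxia and 16.53 to 16.72 under intermittent hypoxia, and none of them passed the test.

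The question was whether the oxidative machinery of the lung differed between exposed and control mice. Of the 40 genes 38 did not pass the test, and both that did act on the acyl-CoA bond at the start of the pathway. Acsl5, an acyl-CoA synthetase, and Acot7, an acyl-CoA thioesterase, rose 1.41-fold and 1.39-fold (limma adjusted p = 0.0110 and 0.00983). None of the 18 measured genes of the carnitine shuttle, the spiral and electron transfer passed, and neither did any of the 5 peroxisomal, 10 branched-chain or 3 ketone body genes. The test was limma over the 22626 probe sets, adjusted by Benjamini and Hochberg's method, at 0.05. It called 12.5% of all genes, 8.93% higher and 3.6% lower, against 2 higher and 0 lower of the 40. At an unadjusted p below 0.05, 6 were higher and 1 was lower, where 19.9% and 12.7% of all genes (32.6% in all) were below that level. SAM, the test named in the design text, called 6 higher and 2 lower. It also called more probe sets over the whole array than limma did. The share called by SAM was smaller among the 40 members than among all probe sets.

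The bounds were narrow. For 38 of the 40 genes the 95% interval of the log2 difference lay within 0.5 of 0 on either side, which was so for 84.0% of all genes, and the exceptions were Acsl5 and Acot7. In 32 of the 40 the estimate itself was smaller than 0.15 in size, as it was in 7165 of all 12393 genes. The median of the 40 was 0.05 beside 0.01 over all genes. Of the 40, 26 were above 0, beside 6593 of the 12393. After quantile normalization 15 were above 0, beside 5728 of the 12393, and the median was -0.06 beside -0.01. The list thus has no direction that both scalings share. Among the 18 members in the brightest 25% the median was 0.07, and -0.09 after quantile normalization. Without normoxia array 5 the calls were 6 higher and 1 lower, and without hypoxia array 4 they were 2 higher and 1 lower. Over the whole array more probe sets passed without normoxia array 5 than in the main fit, and fewer without hypoxia array 4. Without normoxia array 5 the share that passed was smaller among the 40 members than among all probe sets. Without normoxia arrays 2 to 4 together, with 2 normoxia arrays left, none passed and the median was -0.07.

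**Figure D1:**
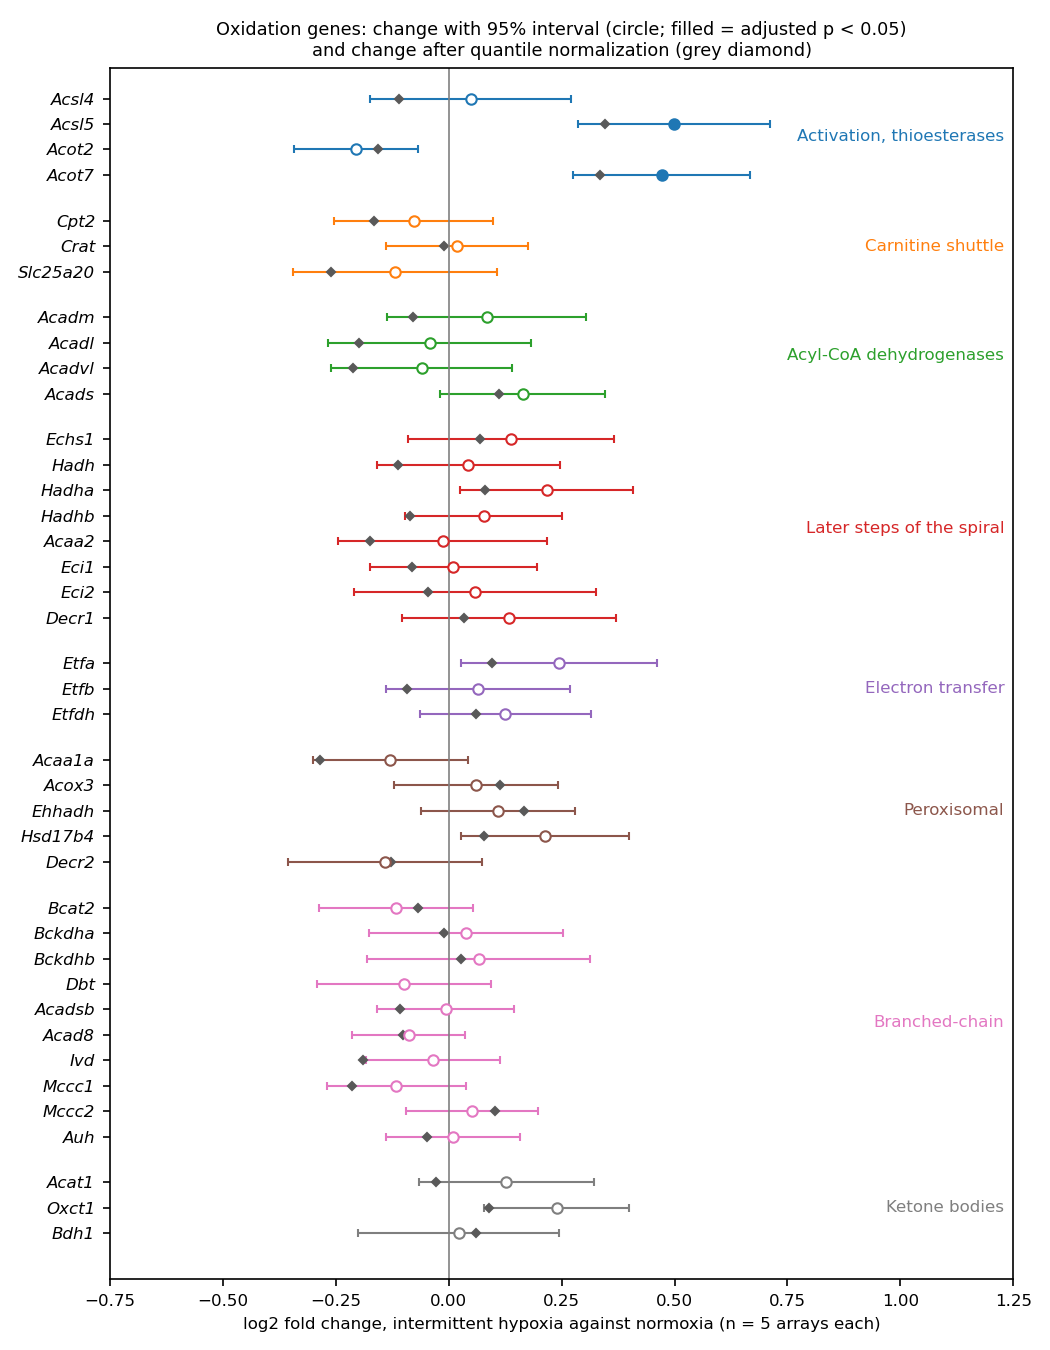
Log2 difference of each of the 40 measured genes between intermittent hypoxia and normoxia (x axis), grouped by step on the y axis, with circles for the estimate, bars for the 95% interval and grey diamonds for the estimate after quantile normalization (hidden behind the circle for Dbt). Only the circles of Acsl5 and Acot7 are filled, which marks an adjusted p below 0.05, and their diamonds stay at 0.35 and 0.33.

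Acsl5 and Acot7 were the 2 members past the test, and their RefSeq promoter stretches are shown for that reason, 250 bases before the annotated start, 5′ to 3′ on the plus strand of GRCm38.p6. Acsl5 lies at chr19:55253119-55253368 and Acot7 at chr4:152185358-152185607. Capitals mark a CCAAT box in the first and overlapping GC boxes (GGGCGG) in the second.
Acsl5: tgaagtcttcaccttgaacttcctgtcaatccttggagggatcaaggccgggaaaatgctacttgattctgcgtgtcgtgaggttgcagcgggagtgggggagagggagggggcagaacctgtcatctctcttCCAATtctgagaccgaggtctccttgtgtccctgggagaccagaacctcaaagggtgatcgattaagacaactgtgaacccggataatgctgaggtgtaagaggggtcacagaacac
Acot7: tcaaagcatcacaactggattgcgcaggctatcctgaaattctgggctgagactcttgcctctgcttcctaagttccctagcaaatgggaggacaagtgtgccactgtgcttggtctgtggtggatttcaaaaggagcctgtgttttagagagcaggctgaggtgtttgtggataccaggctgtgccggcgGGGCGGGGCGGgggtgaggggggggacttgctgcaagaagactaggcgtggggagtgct
The promoters share none of the searched motifs with each other.

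Acsl5 joins long-chain fatty acids to coenzyme A at mitochondrial and endoplasmic reticulum membranes. On normoxia arrays 1 to 5 its level was 11.30, 11.10, 10.83, 10.95 and 11.11, and on hypoxia arrays 1 to 5 it was 11.51, 11.81, 11.63, 11.45 and 11.39. Every hypoxia array was above every normoxia array, with normoxia array 1 nearest to the hypoxia group. The log2 difference was 0.50 (SE 0.10, n = 5 arrays each), with a 95% interval from 0.29 to 0.71. It kept its call without any single array, with limma adjusted p values from 0.00627 to 0.0350, and after quantile normalization, where the difference was 0.35 (limma adjusted p = 0.0104). Without normoxia arrays 2 to 4 together it was 0.35 (SE 0.12) and did not pass (limma adjusted p = 0.302).

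Acot7 cleaves long-chain acyl-CoA in the cytosol and is best known from neurons and macrophages. Its levels were 9.81, 9.84, 9.42, 9.62 and 9.83 on normoxia arrays 1 to 5 and 10.20, 10.31, 10.15, 10.21 and 10.01 on hypoxia arrays 1 to 5. The groups did not overlap, and normoxia array 3 was lowest. The log2 difference was 0.47 (SE 0.09), with a 95% interval from 0.28 to 0.67. Without any single array it ranged from 0.40 to 0.51 and passed each time, and after quantile normalization it was 0.33 (limma adjusted p = 0.0169). Without normoxia arrays 2 to 4 together it was 0.35 (limma adjusted p = 0.195).

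Macrophage markers moved with the same groups. Of 7 measured, Cd68, Mrc1 and Itgax rose by 0.74, 0.41 and 0.66 and the other 4 did not pass. Adgre1 (F4/80), among those 4, had a difference of -0.21 with a 95% interval from -0.38 to -0.04 (limma adjusted p = 0.0936), and Marco one of 0.04. The summed level spanned 12.90 to 13.13 under normoxia and 12.98 to 13.66 under intermittent hypoxia, where array 5 was lowest. In whole tissue, more cells of a type and more RNA per cell cannot be told apart, and the part of macrophages in the rises of Acsl5 and Acot7 was not tested.

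Acot2, the mitochondrial thioesterase, had a difference of the opposite sign. Its levels were 6.58, 6.68, 6.69, 6.60 and 6.60 on normoxia arrays 1 to 5 and 6.39, 6.47, 6.44, 6.55 and 6.28 on hypoxia arrays 1 to 5. The groups did not overlap, which was so for 2.85% of all genes in this direction and 5.76% in the other, but the difference of -0.21 (SE 0.06) missed the threshold (limma adjusted p = 0.0529). It passed as lower with SAM, with arrayWeights (limma adjusted p = 0.0475), with the genes' mean probe sets (0.0388), without normoxia array 5 (0.0459) and without hypoxia array 4 (0.0498). It did not pass with the replicate block (limma adjusted p = 0.0885), after quantile normalization (-0.16, 0.104), with eBayes trend and robust (0.0644), without any of the other 8 arrays (0.0519 to 0.121) or without normoxia arrays 2 to 4 together (0.571). Acot2 was chosen for description after its values were seen. Its cytosolic neighbour in sequence, Acot1, is given with the other pathway genes, and probes of such near-identical copies can share signal. Acsl4, which prefers arachidonic acid, differed by 0.05 with a 95% interval from -0.17 to 0.27.

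**Figure D2:**
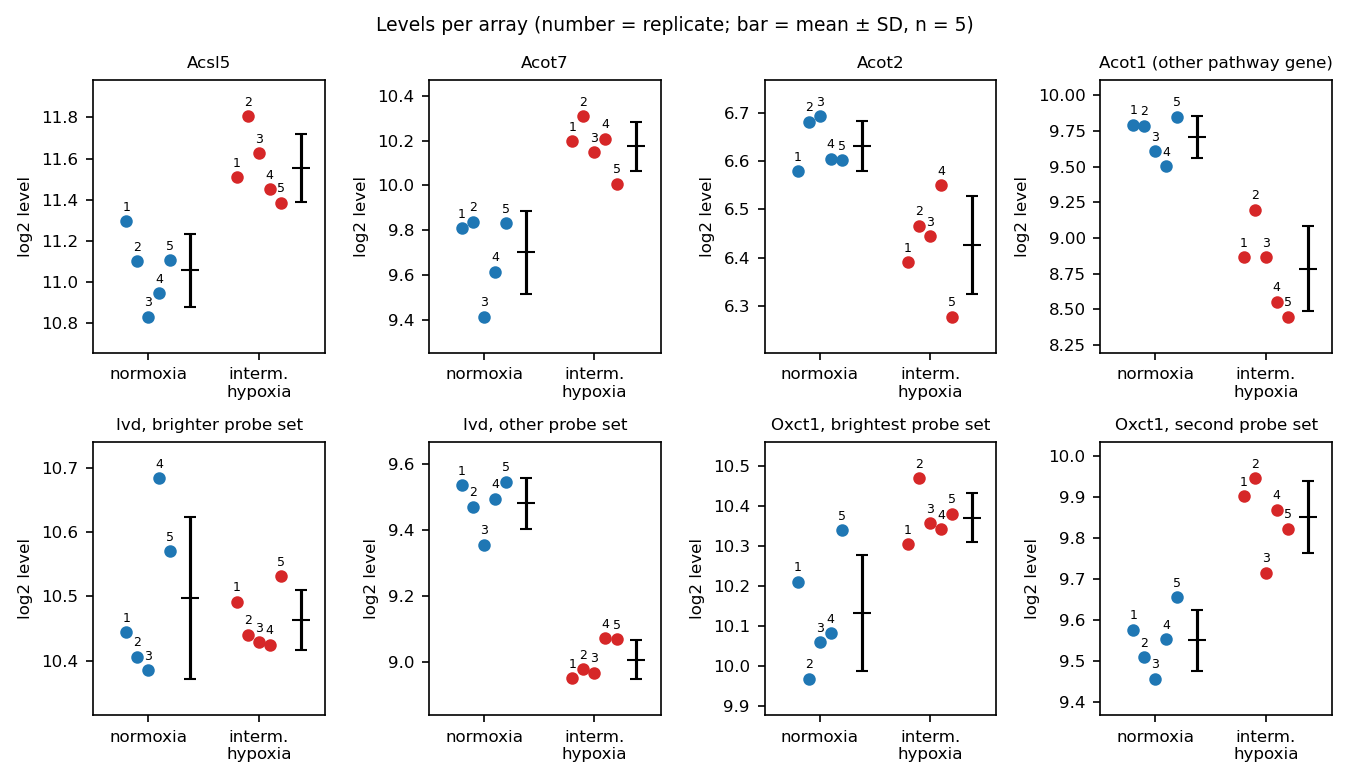
Log2 levels (y axis) on each array for Acsl5, Acot7, Acot2, Acot1 and pairs of probe sets of Ivd and Oxct1, in normoxia (blue) and intermittent hypoxia (red), with the replicate number above each point and the mean ± SD of 5 arrays as a black bar. The groups separate for Acsl5, Acot7, Acot2 and Acot1 and for the second probe sets of Ivd and Oxct1, but overlap in the brighter probe sets of Ivd and Oxct1.

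In the carnitine shuttle none of 3 genes passed, with differences from -0.12 to 0.02. Slc25a20, the carrier that exchanges acylcarnitine for carnitine across the inner membrane, had the largest. Its levels were 10.16, 10.13, 10.01, 9.79 and 10.11 in normoxia and 10.05, 10.16, 9.99, 9.79 and 9.62 in intermittent hypoxia. The ranges overlapped widely and hypoxia array 5 was lowest (difference -0.12, SE 0.10, limma adjusted p = 0.459). Crat, which makes short-chain acylcarnitines, differed by 0.02 (SE 0.07). Cpt2, the inner-membrane transferase, differed by -0.08 (SE 0.08) on its bright probe set. A second, dim probe set of Cpt2 fell by 0.65 (SE 0.16, limma adjusted p = 0.0241). Its levels were 5.98, 5.98, 6.61, 6.57 and 5.64 in normoxia against 5.44 to 5.65 in hypoxia, so normoxia arrays 3 and 4 were highest. That call was lost without any of 5 arrays, normoxia 3 or 4 or hypoxia 1, 2 or 3, with limma adjusted p values up to 0.0639.

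The 4 acyl-CoA dehydrogenases that act on straight chains, each suited to another chain length, differed by -0.06 to 0.16 and none passed. Acads, the short-chain enzyme, had the largest difference, 0.16 (SE 0.08, limma adjusted p = 0.202). It measured 8.64, 8.49, 8.63, 8.36 and 8.80 in normoxia and 8.89, 8.72, 8.62, 8.73 and 8.78 in intermittent hypoxia, so 3 normoxia arrays (1, 3 and 5) lay within the hypoxia range. Acadm, the medium-chain enzyme, differed by 0.08 (SE 0.10). The long-chain enzymes Acadl and Acadvl differed by -0.04 (SE 0.10) and -0.06 (SE 0.09). Acadl is the form prominent in type 2 cells, and its 95% interval ran from -0.27 to 0.18.

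In the later steps of the spiral and the handling of double bonds none of 8 genes passed, with differences from -0.01 to 0.22. Hadha, the subunit of the trifunctional protein that carries the hydratase and the long-chain 3-hydroxyacyl-CoA dehydrogenase, had the largest. It measured 9.86, 9.64, 9.69, 9.56 and about 10 in normoxia and 10.02, 10.06, 10.06, 9.84 and 9.85 in intermittent hypoxia. Normoxia arrays 1 and 5 lay within the hypoxia range. The difference was 0.22 (SE 0.09, limma adjusted p = 0.116), it passed without normoxia array 5 (0.28, limma adjusted p = 0.0310) and with SAM, and it was 0.04 without normoxia arrays 2 to 4.

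Hadhb, the thiolase subunit of the same complex, measured 10.52, 10.50, 10.37, 10.42 and 10.72 in normoxia and 10.74, 10.63, 10.63, 10.45 and 10.47 in intermittent hypoxia. Its difference was 0.08 (SE 0.08). Both genes were low on hypoxia arrays 4 and 5 relative to 1 to 3, and high on normoxia array 5. RefSeq places their starts 273 bases apart on opposite strands of chromosome 5, so they share the stretch between them. The part that both promoter windows hold, chr5:30155003-30155230 of GRCm38.p6, is shown on the plus strand, the strand of Hadhb, because it belongs to both subunits, with a GC box in capitals.
Hadha and Hadhb: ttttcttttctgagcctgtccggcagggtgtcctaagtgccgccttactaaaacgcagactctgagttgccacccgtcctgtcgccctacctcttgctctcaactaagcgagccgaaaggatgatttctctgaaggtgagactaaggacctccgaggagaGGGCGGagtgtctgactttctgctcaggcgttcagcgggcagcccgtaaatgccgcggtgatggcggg
The other genes of these steps were Echs1 (the short-chain hydratase), Hadh (the short-chain 3-hydroxyacyl-CoA dehydrogenase), Acaa2 (a thiolase), the isomerases Eci1 and Eci2, and the dienoyl-CoA reductase Decr1. They differed by -0.01 for Acaa2 to 0.14 for Echs1, and no 95% interval among them reached above 0.37.

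None of the 3 electron transfer genes passed, with differences from 0.07 to 0.24. Etfa, a subunit of electron transfer flavoprotein, measured 10.23, 10.13, 9.88, 10.08 and 10.50 in normoxia and 10.52, 10.41, 10.49, 10.26 and 10.37 in intermittent hypoxia. Only normoxia array 5 reached into the hypoxia range. The difference was 0.24 (SE 0.10, limma adjusted p = 0.119). It passed without normoxia array 5 (0.33, limma adjusted p = 0.0180) and with SAM, and it was 0.10 after quantile normalization and 0.04 without normoxia arrays 2 to 4. The partner subunit Etfb differed by 0.07 (SE 0.09) and Etfdh, which passes the electrons to ubiquinone, by 0.13 (SE 0.09).

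None of the 5 peroxisomal genes passed, with differences from -0.14 to 0.21. Hsd17b4, the multifunctional enzyme for branched and very long chains, had the largest. It measured 9.94, 9.75, 9.64, 9.62 and 9.97 in normoxia and 10.04, 10.08, 10.11, 9.87 and 9.88 in intermittent hypoxia. Normoxia arrays 1 and 5 overlapped with the hypoxia group (difference 0.21, SE 0.09, limma adjusted p = 0.113), and the gene passed without normoxia array 5 (0.26, limma adjusted p = 0.0480) and with SAM. It was 0.08 after quantile normalization (limma adjusted p = 0.404) and 0.04 without normoxia arrays 2 to 4 (limma adjusted p = 0.932). Ehhadh, the bifunctional enzyme for straight chains, and the oxidase Acox3 differed by 0.11 (SE 0.08) and 0.06 (SE 0.08), at dim levels of 5.81 to 6.47 over both genes. The thiolase Acaa1a and the reductase Decr2 differed by -0.13 (SE 0.08) and -0.14 (SE 0.10). The sign for Acaa1a depended on the probe set. Its other probe set differed by 0.23 (SE 0.15) and the mean of its probe sets by 0.05 (SE 0.08), and neither passed.

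None of the 10 genes of branched-chain amino acid breakdown passed. All 10 had an estimate smaller than 0.15 in size, as had 7165 of all 12393 genes. The estimates ran from -0.12 to 0.07, with a median of -0.02. Bcat2, the mitochondrial transaminase of the first step, had the largest. It measured 6.68, 6.81, 6.59, 6.45 and 6.73 in normoxia and 6.49, 6.65, 6.44, 6.44 and 6.65 in intermittent hypoxia, with overlapping groups (difference -0.12, SE 0.08, limma adjusted p = 0.327). Of the branched-chain keto acid dehydrogenase, Bckdha and Bckdhb (the E1 subunits) differed by 0.04 (SE 0.10) and 0.07 (SE 0.11), and Dbt (the E2 core) by -0.10 (SE 0.09). The dehydrogenases of the isoleucine and valine branches, Acadsb and Acad8, differed by -0.01 (SE 0.07) and -0.09 (SE 0.06). SAM called Acad8 lower. In the leucine branch, Mccc1 and Mccc2, the carboxylase subunits, differed by -0.12 (SE 0.07) and 0.05 (SE 0.07), and the hydratase Auh by 0.01 (SE 0.07).

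Ivd, the dehydrogenase of the leucine branch, gave different answers on its 2 probe sets. The brighter, which represents the gene here, measured 10.44, 10.41, 10.39, 10.68 and 10.57 in normoxia and 10.49, 10.44, 10.43, 10.42 and 10.53 in intermittent hypoxia. It differed by -0.03 (SE 0.07), with a 95% interval from -0.18 to 0.11. The other measured 9.54, 9.47, 9.36, 9.50 and 9.55 in normoxia and 8.95, 8.98, 8.97, 9.07 and 9.07 in intermittent hypoxia. Here every hypoxia array lay clearly below every normoxia array, and the fall of 0.48 (SE 0.06, limma adjusted p = 0.00178) was among the 3.43% of probe sets called lower.

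That fall passed without any single array, with limma adjusted p values up to 0.00922, after quantile normalization (-0.56), and without normoxia arrays 2 to 4 together (-0.54, limma adjusted p = 0.0473). The gap between the probe sets was 1.02 ± 0.11 (SD, n = 5) under normoxia and 1.46 ± 0.07 (SD, n = 5) after hypoxia, wider on every hypoxia array than on any normoxia array. An exact two-sided permutation test of the gap gave p = 0.00794, the smallest that 5 against 5 allows, for a pattern picked after its values were seen. The same exact permutation test gave p = 0.0714 for the gap between the Cpt2 probe sets (0.57 wider in hypoxia) and p = 0.310 for that between the Oxct1 probe sets (-0.06). These are the 3 genes with an unused probe set past the test. None of the 3 gaps was therefore picked independently of the group difference. Averaged over both probe sets Ivd fell by 0.26 (limma adjusted p = 0.0138). Which transcript ends or isoforms the probe sets read was not tested. The 250 bases before the annotated start of Ivd, chr2:118861744-118861993 of GRCm38.p6 on the plus strand, are shown since the gene stands apart on the array. Capitals mark 4 CCAAT boxes, all read on the minus strand as ATTGG.
Ivd: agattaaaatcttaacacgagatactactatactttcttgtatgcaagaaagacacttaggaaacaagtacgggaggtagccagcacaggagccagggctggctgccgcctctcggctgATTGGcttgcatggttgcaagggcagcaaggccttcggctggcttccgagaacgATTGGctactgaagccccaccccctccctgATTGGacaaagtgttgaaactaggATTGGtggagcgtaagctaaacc

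Among the ketone body genes, Oxct1, the transferase that lets tissues use ketone bodies, measured 10.21, 9.97, 10.06, 10.08 and 10.34 in normoxia and 10.30, 10.47, 10.36, 10.34 and 10.38 in intermittent hypoxia. Only normoxia array 5 reached the hypoxia range, and the difference of 0.24 (SE 0.07) just missed the threshold (limma adjusted p = 0.0535). It passed without normoxia array 1 (0.26, limma adjusted p = 0.0485) or 5 (0.29, limma adjusted p = 0.0140), with SAM, with arrayWeights, with the mean of its probe sets and with bright probe sets only. It did not pass with the replicate block (limma adjusted p = 0.095), median centring (0.0511) or eBayes trend and robust (0.0659). Nor did it pass without any other single array (limma adjusted p = 0.0768 to 0.124). The difference was 0.09 after quantile normalization (limma adjusted p = 0.299) and 0.10 without normoxia arrays 2 to 4 together (limma adjusted p = 0.763). The second of its 4 probe sets did pass, at 0.30 (SE 0.06, limma adjusted p = 0.0141), with 9.58, 9.51, 9.46, 9.55 and 9.66 in normoxia and 9.90, 9.94, 9.72, 9.87 and 9.82 in intermittent hypoxia. After quantile normalization that probe set was at 0.18 (limma adjusted p = 0.0533). The remaining probe sets of Oxct1 did not pass, at 0.14 (SE 0.09, limma adjusted p = 0.291) and 0.08 (SE 0.07, limma adjusted p = 0.474). Acat1, the thiolase shared by ketone and isoleucine metabolism, differed by 0.13 (SE 0.09), and Bdh1, the hydroxybutyrate dehydrogenase, by 0.02 (SE 0.10).

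Of the 40 genes, 17 had several probe sets and 6 of these had probe sets of both signs. Among the 25 probe sets not used, 3 passed the test: those of Ivd and Cpt2 as lower and that of Oxct1 as higher. Of all probe sets 8.5% passed as higher and 3.43% as lower.

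Within each group the mitochondrial genes followed a common order of lungs, part of which went with the spread of the arrays. Over the 18 genes of the shuttle, the spiral and electron transfer, both hypoxia arrays 4 and 5 lay below all of hypoxia arrays 1 to 3 in 14 genes (77.8%), a pattern held by 18.9% of all genes. In normoxia, arrays 1 and 5 both lay above arrays 2, 3 and 4 in 15 of the 18 (83.3%), beside 29.1% of all genes. Acadl showed the first pattern with 10.68, 10.85 and 10.82 on hypoxia arrays 1 to 3 and 10.34 and 10.41 on arrays 4 and 5. Acaa2 did so with 10.55, 10.64 and 10.52 against 10.14 and 10.17. These array sets were seen in the data and are no groups of the study, so no test was made.

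The same arrays differ in spread. The SD over all probe sets was 1.89 to 1.93 on normoxia arrays 2 to 4 against 2.00 and 2.01 on 1 and 5, and 2.01 and 1.99 on hypoxia arrays 4 and 5 against 2.02 to 2.05 on 1 to 3. Of the 18 genes, 10 belong to the brightest 25% of genes, and among all genes of that class the hypoxia pattern was held by 33.9% and the normoxia pattern by 60.8%. After quantile normalization the hypoxia pattern was in 8 of the 18 (44.4%) beside 16.8% of bright genes. The normoxia pattern was then in 3 of the 18 (16.7%) beside 14.5%, near the background. Of the 10 bright members alone, 6 (60.0%) then held the hypoxia pattern and 0 the normoxia pattern. On the deposited scale these counts were 10 and 8.

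The correlation of 2 genes' deviations from their group means, over 10 arrays that share each hybridisation, had a median of 0.67 over the 153 pairs of these 18 genes. Over all pairs of genes on the array the median was 0.03, and over pairs of bright genes it was 0.45. After quantile normalization it was 0.44 for the 18 genes and 0.01 for bright genes. On the deposited scale it was 0.76 within the later steps of the spiral, 0.33 among the 10 branched-chain genes and 0.03 among the 5 peroxisomal genes. On that scale hypoxia arrays 4 and 5 were both below arrays 1 to 3 in 2 of the 10 branched-chain genes and in 1 of the 5 peroxisomal genes.

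**Figure D3:**
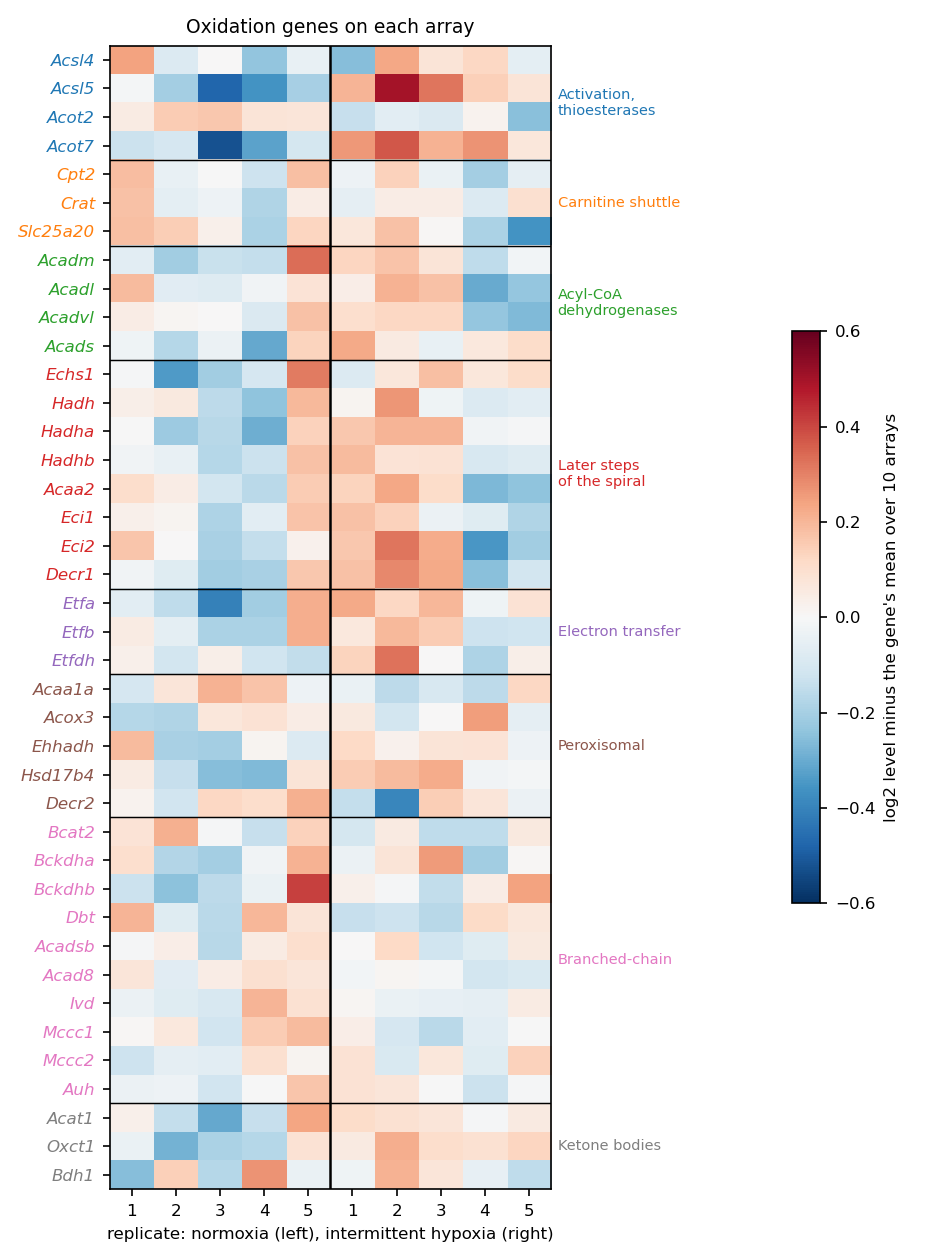
Log2 level minus the gene's mean over the 10 arrays (colour) for the 40 genes (rows, by step) on normoxia arrays 1 to 5 (left) and hypoxia arrays 1 to 5 (right). Shuttle, spiral and electron-transfer rows are mostly blue on normoxia arrays 2 to 4 and on hypoxia arrays 4 and 5, and mostly red on normoxia array 5 and hypoxia arrays 1 to 3, on the deposited scale. The normoxia pattern was in 3 of the 18 after quantile normalization.

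Muscle and fat also run on fatty acid oxidation, so their markers were read on the same arrays. Of 20 cardiac muscle markers 1 fell, Actn2, and none rose. Their summed level was 14.39 to 14.61 in normoxia and 14.58 to 14.65 on hypoxia arrays 1, 2, 3 and 5, and 13.98 on hypoxia array 4. Of 14 skeletal muscle markers 1 fell, Casq1. Normoxia array 2 had a summed level of 14.92 where the other normoxia arrays had 11.26 to 11.68 and the hypoxia arrays 10.96 to 11.48.

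White adipose markers had a summed level of 11.40 to 12.94 under normoxia, highest on array 5, and of 10.62 to 11.71 under intermittent hypoxia, lowest on array 4, and 1 of 8 fell. Brown adipose markers spanned 9.62 to 9.94 and 9.42 to 9.67, and none of 7 passed. Alveolar type 2 markers spanned 16.21 to 16.45 and 16.22 to 16.48, and 1 of 8 rose, Etv5. They were lowest in hypoxia on array 5 and highest in normoxia on array 1. Hepatocyte markers, a check for serum or liver transcripts, spanned 8.91 to 9.78 and 9.07 to 10.96, and 1 of 5 rose, Ttr. The part of these cell types in the lung-to-lung pattern was not tested.

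**Figure D4:**
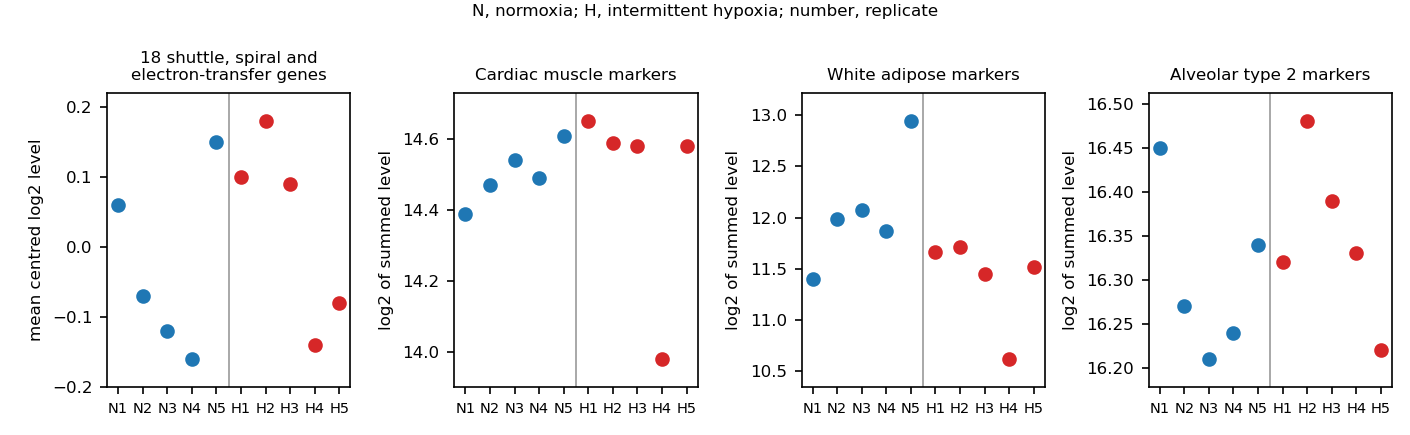
Mean centred log2 level of the 18 shuttle, spiral and electron-transfer genes (left) and log2 summed levels of cardiac muscle, white adipose and alveolar type 2 markers (y axes) on each array (x axis), normoxia in blue and intermittent hypoxia in red. Within hypoxia, the 18 genes were lowest on arrays 4 and 5 (-0.14 and -0.08), the cardiac and adipose lists on array 4 (13.98 and 10.62) and the type 2 list on array 5 (16.22), on the deposited scale.

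Other genes of the same pathways, a list of 94 symbols of which 78 were measured, were read in the same fit. Some unmeasured symbols are alternative names of genes already covered (Mut for Mmut, Lipin1 for Lpin1, Peci for the member Eci2). Of the 78, 4 rose and 9 fell, against 8.93% and 3.6% of all genes, and the median difference was -0.02. The split was 2 higher and 3 lower of 25 other fatty acid genes, 1 and 2 of 25 other peroxisomal genes, 1 and 0 of 13 other branched-chain and propionate genes, and 0 and 4 of 15 regulators. Of these 13 calls 6 were lost when some single array was left out, those of Fabp5, Pex7, Pccb, Acsm3, Acacb and Ppargc1b. Without normoxia array 3 or 4 all 6 were lost, which leaves 1 higher and 1 lower of the other fatty acid genes. Acsm3, which activates medium-chain acids, was lost without normoxia 3 or 4 or hypoxia 1, 2 or 4 (limma adjusted p up to 0.0686). Acacb, the acetyl-CoA carboxylase at mitochondria, was lost without any of 8 arrays, normoxia 1 to 5 and hypoxia 3 to 5 (limma adjusted p up to 0.112). Ppargc1b, a coactivator, was lost without normoxia 2 to 4 or hypoxia 1 to 4 (limma adjusted p up to 0.0958). Oxct2a, the one ketone gene measured beside these, did not pass.

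Acot1, a cytosolic thioesterase gene induced by fatty acids through PPARα, had the smallest adjusted p. It measured 9.79, 9.79, 9.61, 9.50 and 9.85 in normoxia and 8.87, 9.20, 8.87, 8.55 and 8.45 in intermittent hypoxia. The groups were far apart, and hypoxia arrays 4 and 5 were again the lowest. The fall was 0.92 (SE 0.13, limma adjusted p = 0.00298), to 0.528 of the normoxia level. Without normoxia arrays 2 to 4 it was -1.03 (limma adjusted p = 0.0739).

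Among the regulators, Lpin1, a phosphatidate phosphatase and coactivator of PPARα, measured 9.47 to 9.56 in normoxia and 9.07 to 9.22 in intermittent hypoxia and fell by 0.35 (SE 0.05, limma adjusted p = 0.00482). Ppara itself fell by 0.50 (SE 0.11, limma adjusted p = 0.0134). Pdk4, the kinase that holds back pyruvate oxidation, measured 9.29, 10.54, 10.07, 9.36 and 9.76 in normoxia and 8.65, 9.15, 8.72, 7.54 and 7.48 in intermittent hypoxia. It fell to 0.354 of the normoxia level (limma adjusted p = 0.0153). Cpt1a, which controls entry into mitochondria, differed by 0.06 (SE 0.20), with normoxia from 10.30 to 11.27 and hypoxia from 10.27 to 11.23. Bckdk, the kinase that restrains branched-chain oxidation, differed by 0.13 (SE 0.09, limma adjusted p = 0.326).

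Of the peroxisomal genes outside the 5 members, Amacr, a racemase for branched chains, fell by 0.44 (SE 0.09, limma adjusted p = 0.0144), and Pex11a, a peroxisome division protein, by 0.34 (SE 0.07, limma adjusted p = 0.0140). Pex7, the receptor that imports thiolase, rose by 0.29 (SE 0.07), but failed the test when normoxia array 2, 3 or 4 or hypoxia array 2, 3 or 4 was left out, with limma adjusted p values up to 0.0716. Acot9, a mitochondrial thioesterase, rose by 0.48 (SE 0.09, limma adjusted p = 0.00915), with 8.91 to 9.39 in normoxia and 9.50 to 9.73 in intermittent hypoxia. Fabp5, a fatty acid binding protein, rose by 0.51 (SE 0.13) and failed when normoxia 3 or 4 or hypoxia 2, 3 or 4 was left out (limma adjusted p up to 0.0741). Pccb, a propionyl-CoA carboxylase subunit, rose by 0.29 (SE 0.09) and failed when any of arrays 1 to 4 of either group was left out (limma adjusted p up to 0.122). After quantile normalization Pex7, Fabp5 and Pccb did not pass, with limma adjusted p values of 0.0762, 0.0604 and 0.0740. Without normoxia arrays 2 to 4 together none of the 13 passed.

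RefSeq promoter windows of 300 bases were held for 34 of the 40 genes, 37 windows in all. The direct repeat of AGGTCA with 1 base between the copies (DR1, bound by PPAR with RXR), its looser form with AGGNCA in both copies, and TCAAGGTCA, bound by oestrogen-related receptors, were each found in 0 of the 37 on either strand, where 0.0396%, 0.381% and 0.424% of all 32817 windows held them. The E-box CACGTG was in 1 window, that of Mccc2, beside 7.15% of all windows. ACGTG, the core of the hypoxia response element and part of that E-box, was in 5 windows (13.5%) beside 19.6%, those of Acadvl, Bcat2, Mccc2 and Oxct1. The GC box GGGCGG was in 24 windows (64.9%) beside 35.6%, and CCAAT in 15 (40.5%) beside 37.4%.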

How the data were processed

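Affymetrix Mouse Genome 430A 2.0 arrays measured the RNA of 10 whole lungs, 5 per group. The deposited values are the authors' log2 levels per probe set. The submitters' processing notes name RMA and affy but no version. The sources used here do not say how arrays were normalized to each other. The platform annotation gave 1 symbol to 20380 probe sets, several to 691 and none to 1555.

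No probe set was filtered out, and the 22626 were tested with limma 3.58.1 (lmFit, eBayes) in R 4.3.3, two-sided, at a Benjamini-Hochberg adjusted p of 0.05. Members and lists were chosen with earlier results of these data known, so no list was tested and no p was adjusted within a list. Named genes were those past the test and the member with the largest difference in each step. Of the other pathway genes, those past the test were named, up to 6 in each direction by p, with Cpt1a, Ppara, Pdk4 and Bckdk whatever their value. Other names are marked in the text, and Acsm3, Acacb and Ppargc1b are named for their lost calls. Marker lists were given as the log2 of summed linear levels. GGGCGG and CCAAT were added to the motif search after the windows were seen. Alternatives were SAM with 100 permutations, quantile normalization, median centring, eBayes with trend and robust, a filter at the median level, arrayWeights, a replicate block, averaged probe sets of a gene, and leaving out arrays.

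The labels do not say that a replicate number marks a shared batch, so the numbers were not taken as pairs. Deviations of arrays with the same number correlated from -0.24 to 0.22 over the 5 pairs, which cannot exclude a shared batch. Tested on simulated data of 22626 probe sets, limma recovered 75% of changes of 0.5 and 98% of changes of 1 on the log2 scale, and SAM 77% and 98%. Of the calls, 5.98% with limma and 6.42% with SAM were false. The simulation changed 200 probe sets and drew normal noise for each probe set independently. It held no deviations shared by the genes of an array, so these shares may not hold for the real arrays. Precision is limited by having 5 arrays per group.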

Additional observations from a re-analysis of the deposited data

Results flagged for a closer look

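In groups of 5 arrays, a value far from the other 4 was looked for in 132 groups of values, and chance alone marks about 1 in 20. It was found in 7, of which 1 concerned the oxidation genes. Acadm was at 10.89 on normoxia array 5, where the other normoxia arrays had 10.34 to 10.49. Amacr was at 6.25 on hypoxia array 1, beside 6.60 to 6.70 on the others. Pex7 was at 9.77 on normoxia array 5, beside 9.42 to 9.51. The cardiac muscle markers had a summed level of 13.98 on hypoxia array 4, beside 14.58 to 14.65. On the same array the white adipose markers were at 10.62, beside 11.45 to 11.71, and the brown adipose markers at 9.42, beside 9.60 to 9.67. The skeletal muscle markers were at 14.92 on normoxia array 2, beside 11.26 to 11.68.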

How the results depend on the processing

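Acsl5 and Acot7 were higher under every alternative run and past the test in all of them except without normoxia arrays 2 to 4 together, a choice made with their narrow spread known. That alternative left 16 probe sets and 0 members past the test and a member median of -0.07, with 2 normoxia arrays remaining. SAM called 7257 probe sets, 6 members higher and 2 lower. With arrayWeights 4132 probe sets passed, and among the members 3 as higher and 1 as lower. Averaging each gene's probe sets made 3 members pass as lower (Ivd, Cpt2 and Acot2) and 3 as higher. The share of all genes called in that averaged fit was not counted, so these member counts have no background beside them. Quantile normalization gave a member median of -0.06 against 0.05, with 2 members higher and 0 lower. Without any single array the probe sets past the test numbered 1003 to 4800, against 2699, the members higher 2 to 6 and lower 0 to 1, and the median ran from 0.00 to 0.07. The counts of probe sets were 1341, 1123, 1003 and 4800 without normoxia array 2, 3, 4 or 5, and 1265, 1383, 1371 and 1714 without hypoxia array 1, 2, 3 or 4. The fit with the replicate block called 1755 probe sets and the same count of members, 2 higher and 0 lower, and ended the calls of Pex7, Pccb, Acacb and Ppargc1b. An alternative chosen after seeing the data, quantile normalization of the order of lungs, moved the hypoxia pattern from 14 to 8 and the normoxia pattern from 15 to 3 of the 18 mitochondrial genes. The cause of these differences was not tested. Signal over background was not measured per probe set, which limits the 5 members in the dimmest 25% of genes. That class ranks genes by the probe set that stood for each, not all probe sets.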
